A study of Mus musculus with 12 samples.

Results

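The 8 genes described here encode transcription factors of the primitive streak and of the mesoderm that leaves it: T, Mixl1, Evx1, Gsc, Mesp1, Mesp2, Tbx6 and Hand2. They were chosen by name, through the transcript accession of each array probe, and T is the gene now also called Tbxt or brachyury. On the arrays used for vitamin C they had 10 of 41174 probes, and on those used for retinoic acid 9 of 55681. J1 mouse embryonic stem cells, a line that can form all lineages of the embryo, were grown on gelatin without feeder cells for 24 h in 4 groups of 3 samples. The groups received 50 µg of vitamin C (VC), 1 µL of water (ddH2O), 1 µM retinoic acid (RA) or 1 µL of DMSO, the solvent of RA. The labels give no volume for the VC amount. All 4 groups kept LIF, the cytokine that holds these cells in the stem cell state, at 1000 U/mL, so RA was given in its presence. VC was compared with ddH2O and RA with DMSO, on separate array designs and with no shared control sample. Whether a group's 3 samples were separate cultures is not in the labels, and p-values thus measure a spread among samples that may be only technical.

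The primitive streak is the structure through which cells of the mammalian embryo pass at gastrulation to become mesoderm and endoderm. Nodal, Wnt, BMP and FGF signals switch on T, Mixl1, Evx1, Eomes and Gsc there, and cells that leave the streak turn on Mesp1, Mesp2, Tbx6 and later lineage factors such as Hand2. Embryonic stem cells held with LIF have little expression of these genes. Retinoic acid is made in the embryo by the young mesoderm, acts through nuclear receptors on DNA, and takes part in the patterning of somites, hindbrain and heart.

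Mesp1 and Mesp2 are neighbouring paralogs, and Mesp2 is the next protein-coding gene after Mesp1 in the RefSeq table. The factor Tbx6 is known in mouse to act on Mesp2. The start regions of the pair are shown because both hold the letters of a T-box core site, the kind of sequence that T and Tbx6 bind, and because the neighbours differed in the data below. Both are 300 bases from RefSeq (GRCm38.p6), Mesp1 at chr7:79793541-79793840 on the minus strand and Mesp2 at chr7:79810477-79810776 on the plus strand. Capitals mark CACACCT, the reverse complement of the searched core site AGGTGTG, in both, and the TCF/LEF letters CTTTGAT in Mesp1.
Mesp1: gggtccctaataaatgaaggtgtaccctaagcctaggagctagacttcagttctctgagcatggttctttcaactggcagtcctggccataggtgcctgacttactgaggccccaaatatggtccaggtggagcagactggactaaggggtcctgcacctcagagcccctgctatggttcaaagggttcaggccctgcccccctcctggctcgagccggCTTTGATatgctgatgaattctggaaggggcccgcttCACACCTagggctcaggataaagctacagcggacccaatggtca
Mesp2: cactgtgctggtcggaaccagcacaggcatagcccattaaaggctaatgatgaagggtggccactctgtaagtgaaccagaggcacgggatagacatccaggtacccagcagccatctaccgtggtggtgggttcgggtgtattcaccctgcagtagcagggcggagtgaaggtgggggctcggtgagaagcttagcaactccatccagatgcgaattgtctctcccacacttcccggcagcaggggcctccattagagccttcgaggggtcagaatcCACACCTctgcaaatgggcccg

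Counted from the annotated start as position 0, the T-box site began at 6 in Mesp1 and at 28 in Mesp2, and the TCF/LEF letters began at -31 in Mesp1. No 2 matches overlapped. RefSeq start regions were found for 7 of the 8 members, all but Mixl1, and both strands were searched. AGGTGTG was also in Evx1, which makes 3 of 7 members, against 5.84% of 32851 start regions of the same length. CTTTGAT was in 3.73% of all start regions. The exact letters AGGTCA of the nuclear receptor core site, in 16.3% of all start regions, were in none of the 7. Nor therefore were direct repeats of these letters spaced by 5 or by 2 bases (0.00913% each), the spacings of retinoic acid response elements. Other forms of the core site were not searched for, so such elements may be missed. The letters CATATG (3.91%), a form of the E-box, were also in none, and other forms of the E-box were not searched for. These matches describe letters in 1 window per gene and say nothing of binding.

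Each value below is a scaled signal: the array's processed intensity, brought to the same 75th percentile as the other 5 arrays of its design. It can be compared between arrays of a design for 1 probe, but not between probes or designs. Agilent's software marks each spot that is well above background. That held for 66.9 to 70.3% of probes on the VC and ddH2O arrays and for 60.8 to 65.6% on the RA and DMSO arrays, and no array had a saturated probe. The lowest such signal was 8.47 to 11.4 on the VC and ddH2O arrays and 6.30 to 13.9 on the RA and DMSO arrays. No probe on the VC and ddH2O design was named through its accession as the stem cell marker Nanog. Of the 8 stem cell markers used to check the cells, 7 were thus measured in VC and ddH2O samples and 8 in RA and DMSO samples. Their summed scaled signal, most of it from Dppa5a, was 363238 to 393749 in VC samples, against 341018 to 390299 in ddH2O samples. It was 37103 to 42050 in RA samples, against 225932 to 235304 in DMSO samples. Arrays VC 1, VC 2, ddH2O 2 and ddH2O 3 shared a slide, while VC 3 and ddH2O 1 were each on another. All RA arrays were on one slide and all DMSO arrays on another, so slide and treatment cannot be told apart there.

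In VC samples Mesp2 was 1.28-fold higher than in ddH2O samples, while 1 of 2 Mesp1 probes and 1 of 2 Hand2 probes were lower, by 1.32-fold and 1.52-fold. The other tested members, T, Tbx6 and Gsc, did not pass the test, and Mixl1 and Evx1 were too dim to test. A probe entered the test if 3 or more of the 6 arrays showed it well above background, as 7 of the 10 member probes did. Of those 7, limma with Benjamini-Hochberg adjustment over the 28157 probes tested called 1 higher and 2 lower at an adjusted p under 0.05. Over all probes tested 8.29% were called, 2.97% higher and 5.32% lower. The 2 groups did not overlap for 1 member probe that was higher and 4 that were lower, against 18.3% and 18.2% of all probes tested. No call on these members held with any 1 of the 6 arrays left out.

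**Figure D1:**
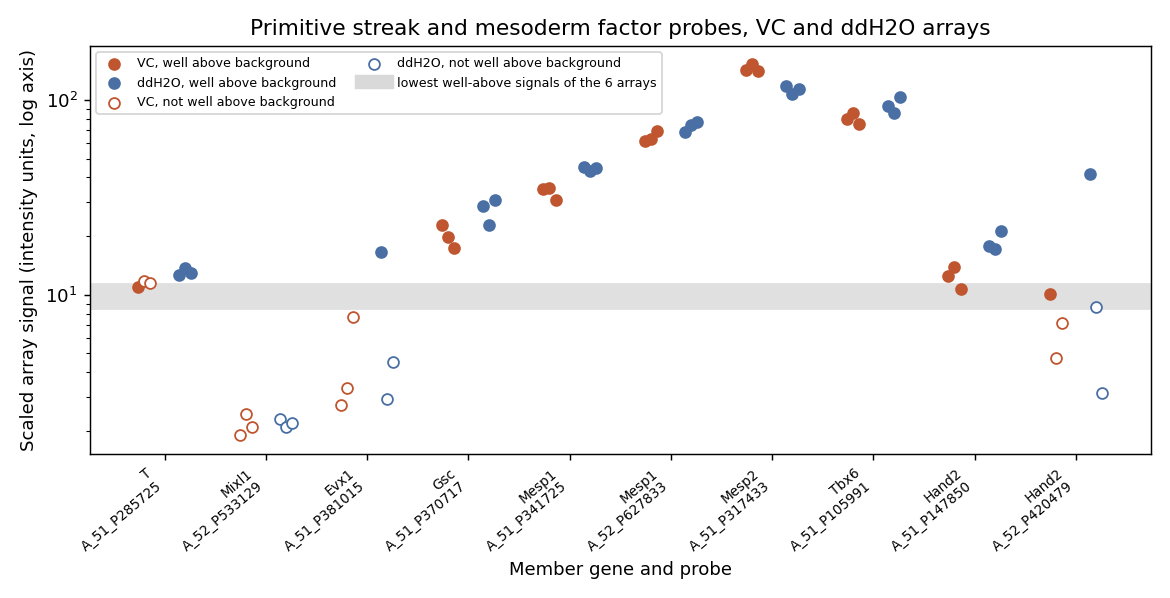
Scaled signal (log axis, intensity units) of the 10 member probes on each VC and ddH2O array, with 1 point per array. Filled points are well above background, open points are not, and the grey band spans the lowest well-above signal of the 6 arrays, 8.47 to 11.4. The 3 VC points of Mesp2 lie above the 3 ddH2O points, while both Mixl1 groups lie below the band.

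T, the T-box factor that marks the whole streak and is needed to form posterior mesoderm, was close to the limit of these arrays. Its probe A_51_P285725, printed in 10 spots per array, gave 11.0, 11.7 and 11.5 in VC samples, against 12.7, 13.7 and 13.0 in ddH2O samples. The groups did not overlap, but the log2 difference of -0.20 (95% interval -0.35 to -0.053) missed the threshold (limma, adjusted p = 0.0929). It was well above background on 1 VC array and all 3 ddH2O arrays.

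Mixl1, a homeobox factor of the streak, was well above background on none of the 6 arrays. Its probe A_52_P533129 read 1.90 to 2.44 in VC samples and 2.09 to 2.31 in ddH2O samples. Evx1, a homeobox factor of the posterior streak, gave 2.73, 3.34 and 7.73 in VC samples, against 16.6, 2.91 and 4.51 in ddH2O samples (A_51_P381015). Only the first ddH2O array was well above background, and the probe was not tested.

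Gsc, the goosecoid homeobox factor of the anterior streak and organizer, gave 22.8, 19.7 and 17.4 in VC samples and 28.5, 22.8 and 30.8 in ddH2O samples (A_51_P370717). The highest VC value lay just above the lowest ddH2O value. Its log2 difference of -0.45 (95% interval -0.81 to -0.095) had an adjusted p of 0.108 (limma).

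Mesp2, the bHLH factor that sets somite boundaries, gave 142, 152 and 140 in VC samples, against 118, 107 and 113 in ddH2O samples (A_51_P317433). Every VC value was above every ddH2O value. The log2 difference was 0.36 ± 0.067 (SE, n = 3 each), with an adjusted p of 0.0331 (limma). With the slide as a block, which sets VC 1 and VC 2 against ddH2O 2 and ddH2O 3, it was 0.41 with an adjusted p of 0.125.

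Mesp1, the bHLH factor of the earliest cardiac and head mesoderm, had 2 probes, and both were lower in VC samples. A_51_P341725 gave 35.0, 35.4 and 30.5 in VC samples, against 45.0, 43.2 and 44.9 in ddH2O samples. That is a log2 difference of -0.40 ± 0.077 (SE, n = 3 each; limma, adjusted p = 0.0345), or -0.32 with the slide as a block (adjusted p = 0.138). A_52_P627833 gave 61.5, 62.9 and 69.2 in VC samples, against 68.6, 74.7 and 76.6 in ddH2O samples. These values overlapped and did not pass the test, at -0.18 (95% interval -0.37 to 0.00120, adjusted p = 0.176).

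Tbx6, the T-box factor that commits cells to paraxial mesoderm, gave 79.6, 85.9 and 75.4 in VC samples, against 93.0, 86.1 and 103 in ddH2O samples (A_51_P105991). The groups were adjacent, with the highest VC value just under the lowest ddH2O value. The log2 difference of -0.23 (95% interval -0.45 to -0.0084) had an adjusted p of 0.162 (limma).

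Hand2, a bHLH factor of lateral plate, heart and limb mesoderm, had 2 dim probes. A_51_P147850 gave 12.4, 13.9 and 10.7 in VC samples, against 17.8, 17.1 and 21.4 in ddH2O samples, all near the lowest signal that counted as above background. Its log2 difference was -0.61 ± 0.13 (SE, n = 3 each; limma, adjusted p = 0.043), or -0.54 with the slide as a block (adjusted p = 0.156). A_52_P420479 gave 10.1, 4.74 and 7.16 in VC samples, against 41.9, 8.64 and 3.12 in ddH2O samples. It was well above background on VC 1 and ddH2O 1 only and was not tested, and its spread within ddH2O covered the VC values.

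In RA samples Hand2 was at least 9.99-fold higher than in DMSO samples, and 1 of 2 Tbx6 probes was 2.13-fold higher while the other did not pass the test. Mesp1 was at least 1.51-fold lower. T was called higher at signals near background, and Mesp2 and Gsc did not pass the test. Of the 9 member probes 7 were tested, and limma with adjustment over 37046 probes called 3 higher and 1 lower. Hand2, among the higher, and Mesp1, the lower, entered the test only through the group where each was high. Over all probes tested 71.6% were called, 36% higher and 35.5% lower, so a call in itself did not set these genes apart. The 2 groups did not overlap for 3 member probes that were higher and 2 that were lower, against 38.5% and 38.6% of all probes tested. Hand2 and Mesp1 are among these member probes as well. With arrays brought to the same median, or to the same spike-in signal, the share of calls that were higher was 34.0% or 31.1%, against 50.3% here. Those scalings moved the median log2 difference of all probes to -0.31 and -0.36, against 0.029.

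**Figure D2:**
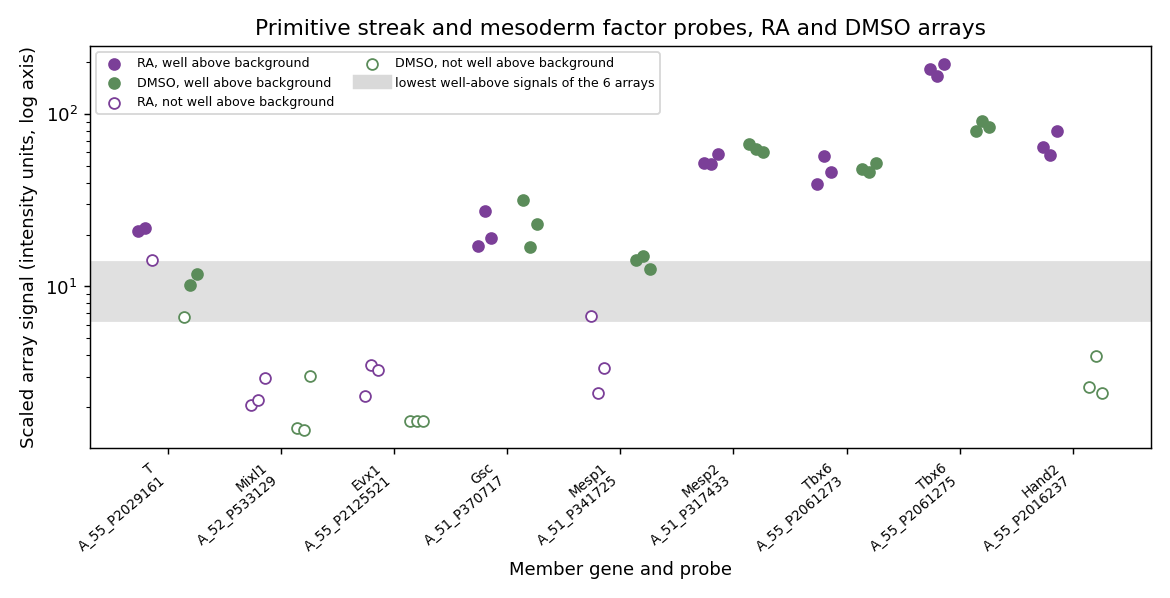
Scaled signal (log axis, intensity units) of the 9 member probes on each RA and DMSO array, with 1 point per array. Filled points are well above background, open points are not, and the grey band spans the lowest well-above signal of the 6 arrays, 6.30 to 13.9. Hand2 is filled in RA and open in DMSO, Mesp1 is open in RA and filled in DMSO, and the 2 Tbx6 probes differ.

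Hand2 gave 64.8, 57.9 and 80.1 in RA samples, against 2.60, 3.93 and 2.40 in DMSO samples (A_55_P2016237). No DMSO array was well above background, and the RA values were all far above the grey band of the plot of RA and DMSO signals. The bound of 9.99-fold sets the RA mean against the lowest well-above signal of the DMSO arrays. The fitted log2 difference was 4.53 (limma, adjusted p = 1.404e-05), and the probe entered the test only through the RA arrays.

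The Tbx6 probes gave different results. A_55_P2061275 gave 184, 166 and 195 in RA samples, against 79.4, 91.3 and 84.8 in DMSO samples, a log2 difference of 1.09 ± 0.096 (SE, n = 3 each; limma, adjusted p = 0.000145). A_55_P2061273 gave 39.3, 57.0 and 46.2 in RA samples, against 48.4, 46.1 and 52.3 in DMSO samples, which overlapped. Its log2 difference was -0.058 (95% interval -0.42 to 0.30, adjusted p = 0.739). Within each array, where scaling cancels, the log2 ratio of the first probe to the second was 2.22, 1.54 and 2.08 in RA samples and 0.71, 0.99 and 0.70 in DMSO samples. The difference of 1.15 had p = 0.1 in a two-sided exact permutation test, the smallest that 3 against 3 samples can give. This ratio uses the same signals as the 2 fits, so it is no separate support for a probe difference. Which Tbx6 exons the probes cover was not analysed here.

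Mesp1 gave 6.78, 2.42 and 3.35 in RA samples, none well above background, against 14.3, 15.0 and 12.6 in DMSO samples, all well above (A_51_P341725). The groups did not overlap. The fitted log2 difference was -1.87 (limma, adjusted p = 0.00453), and the probe entered the test only through the DMSO arrays. Mesp2 was measured on every array, at 52.2, 51.7 and 58.8 in RA samples, against 67.3, 63.2 and 60.2 in DMSO samples (A_51_P317433). Every RA value was below every DMSO value, but the log2 difference of -0.23 (95% interval -0.44 to -0.016) just missed the threshold (adjusted p = 0.0544). Brought to the same median it was -0.57 (adjusted p = 0.000815), and without RA 3 it was -0.29 (adjusted p = 0.0184), both called lower.

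T gave 21.0, 21.7 and 14.2 in RA samples, against 6.67, 10.2 and 11.8 in DMSO samples (A_55_P2029161), and 2 arrays of each group were well above background. Its log2 difference was 1.00 ± 0.27 (SE, n = 3 each; limma, adjusted p = 0.0151). Before scaling, its processed signals of 16.3, 18.5 and 8.99 in RA samples overlapped those of 8.96, 13.6 and 15.8 in DMSO samples. The 75th percentile of the RA arrays was lower (8.17 to 8.60 on the log2 scale) than that of the DMSO arrays (9.25 to 9.26), so scaling raised the RA values relative to DMSO. The call was lost with quantile normalization (0.59, adjusted p = 0.115), with median scaling (0.66, adjusted p = 0.0744), and without RA 1 (0.92, adjusted p = 0.051).

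Gsc gave 17.2, 27.5 and 19.2 in RA samples, against 31.9, 17.0 and 22.9 in DMSO samples (A_51_P370717), and the groups overlapped. Its log2 difference was -0.15, with a 95% interval of -0.83 to 0.54 that covers a fall as well as a rise (adjusted p = 0.648). Mixl1 and Evx1 were well above background on none of the 6 arrays. Mixl1 gave 2.06, 2.21 and 2.93 in RA samples, against 1.52, 1.47 and 3.04 in DMSO samples (A_52_P533129). Evx1 gave 2.32, 3.49 and 3.29 in RA samples, against 1.65 on each DMSO array (A_55_P2125521). At this signal no difference in either gene could be detected.

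**Figure D3:**
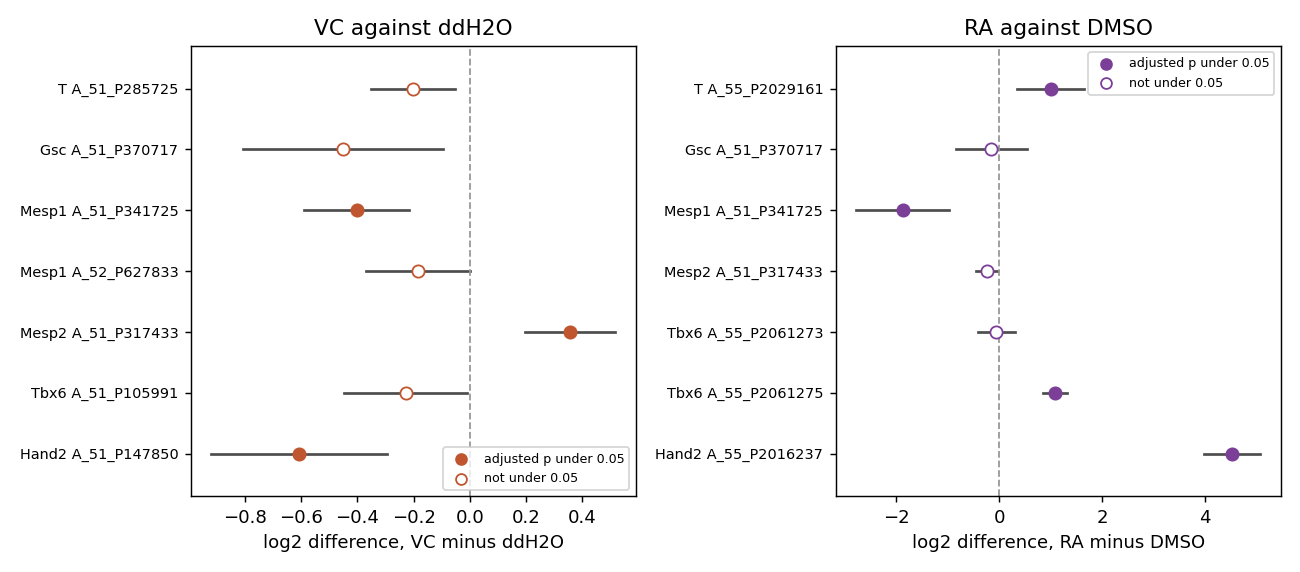
Log2 difference of each tested member probe with its 95% interval (limma, n = 3 each), VC minus ddH2O on the left and RA minus DMSO on the right, on axes of different range. Filled points passed an adjusted p under 0.05. The VC differences run from -0.61 for Hand2 to 0.36 for Mesp2, and the RA differences from -1.87 for Mesp1 to 4.53 for Hand2, both fitted against a group with no array above background, for which the data give only bounds of 1.51-fold and 9.99-fold.

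The choice of scaling changed the call for T and Mesp2 in RA samples. Tbx6 A_55_P2061275, well above background on all 6 arrays, was also called higher under quantile, median and spike-in scaling and normexp background correction. Hand2 was higher and Mesp1 lower under the same settings, but each entered the test only through the group where it was high, so these repeated calls are no support, and with all 6 arrays required neither was tested. Normexp, which adds an offset that compresses dim signals, gave 1.02 for Hand2, 0.59 for that Tbx6 probe and -0.33 for Mesp1. T was positive under all 5 settings but called only under the first.

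**Figure D4:**
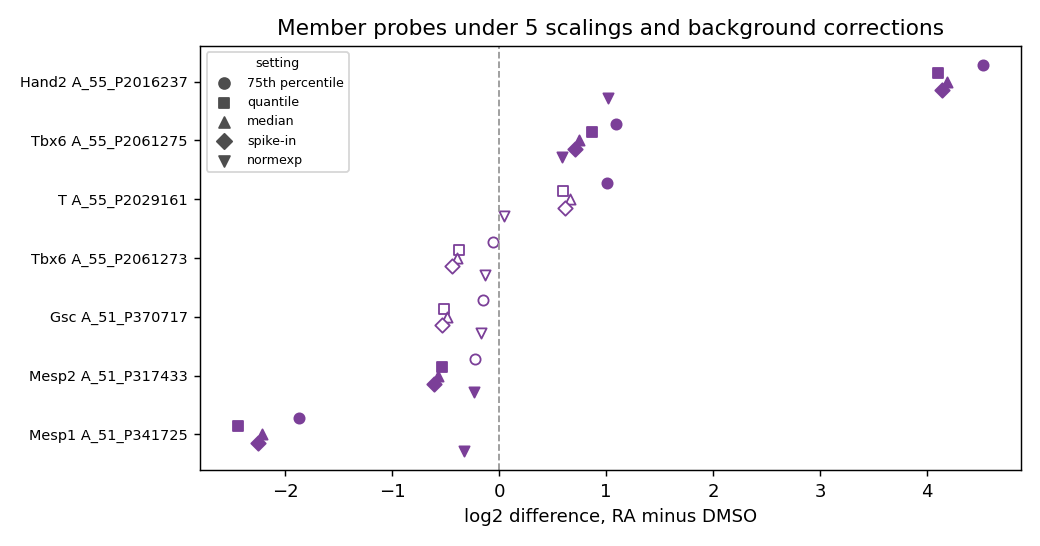
Log2 difference (RA minus DMSO) of the 7 tested member probes under 5 settings, each with its own marker shape, where filled markers passed an adjusted p under 0.05. The T probe is filled only at the 75th percentile setting, and Mesp2 is filled under the other 4 settings.

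The 2 comparisons share no control, and 4 probes were on both designs. Mesp1 A_51_P341725 was called lower in both, but in RA against DMSO it entered the test only through the DMSO arrays. Its call in VC against ddH2O did not hold with any 1 array left out. Mesp2 A_51_P317433 had a log2 difference of 0.36 in VC samples over ddH2O samples, and of -0.23 in RA samples over DMSO samples. Gsc did not pass the test in either comparison, and Mixl1 was not tested in either. Whether any member differed between the VC and RA comparisons was not tested.

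Other genes of gastrulation were read from 5 lists, each gene by its brightest tested probe. In VC samples 7 of 45 tested genes were called, 1 higher and 6 lower, against 10.3% of all 14530 genes read that way (3.18% higher, 7.14% lower). Among early streak factors 2 of 10 fell and none rose (median log2 difference -0.17). They were Sp5 (-0.60), a zinc finger target of Wnt signalling, and Snai1 (-0.34), which represses E-cadherin at gastrulation. Of 11 streak-inducing signals Bmp4 rose (0.42) and Fgf8 fell (-0.52), with a median of -0.0076. Of 8 paraxial mesoderm and somite genes the Notch ligands Dll1 (-0.87) and Dll3 (-0.53) fell, with a median of -0.17. None of 8 lateral plate and cardiac genes was called (median -0.17), and of 8 surface and migration genes the VEGF receptor Flt1 fell (-1.40, median -0.14). The median over all genes was -0.00057. None of these 7 calls held with the slide as a block (limma, adjusted p 0.110 to 0.180), nor without VC 1, ddH2O 1 or ddH2O 2, and 4 list genes were called without VC 3 or without ddH2O 3.

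In RA samples 45 of 52 tested genes of the same lists were called, 28 higher and 17 lower, against 75.6% of all 16017 genes (34.8% higher, 40.8% lower). Of 11 streak-inducing signals 9 fell and 1 rose (median log2 difference -3.26). The largest falls were in Fgf4 (-7.03), an FGF made by stem cells, and Tdgf1 (-5.34), the co-receptor of Nodal, while the activin receptor Acvr2b rose (0.35, but -0.032 with spike-in scaling). Of 10 early streak factors 6 rose and 3 fell (median 1.15), led by Foxa2 (3.95), a factor of node and endoderm, and Sp5 (3.03). Eomes (-1.24), the T-box factor upstream of Mesp1 in mouse, and Foxh1 (-1.33), the partner of Smads in Nodal signalling, fell, as did the POU factor Pou3f1 (-0.95).

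Of 13 paraxial mesoderm and somite genes 8 rose and 3 fell in RA samples (median 0.54). Foxc1, Foxc2 and Tbx18, 3 of those that rose, were well above background on no DMSO array and entered the test only through the RA arrays, at least 54.1-fold, 64.9-fold and 2.75-fold higher. Their bounds lie above the median. Meox1, a somite homeobox factor, had a log2 difference of 7.53. Tcf15 (-4.97), which stem cells also express, and Ripply1 (-2.08), a partner of Tbx6, fell, as did Dll1 (-0.46). Msgn1, a paraxial mesoderm factor, was well above background on no array. Of 14 lateral plate and cardiac genes 8 were tested, of which 7 rose and 1 fell (median 2.08). Bmp2 was at 5.46 (well above background on 1 of 3 DMSO arrays). The cardiac factor Nkx2-5 was at 3.43 and Tbx3, which stem cells also express, at -2.21. Hand1, the paralog of Hand2, was well above background on no RA or DMSO array, and neither were Tbx20 and Mef2c. Foxf1, Tbx5 and Myocd, well above background on 2 RA arrays and no DMSO array, were not tested. Of 10 surface and migration genes 6 rose and 1 fell (median 0.95). N-cadherin (Cdh2) was at 4.97, Rspo3 was at least 13.1-fold higher, having entered the test only through the RA arrays, and E-cadherin (Cdh1) was at -2.13. The median over all genes was -0.075.

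**Figure D5:**
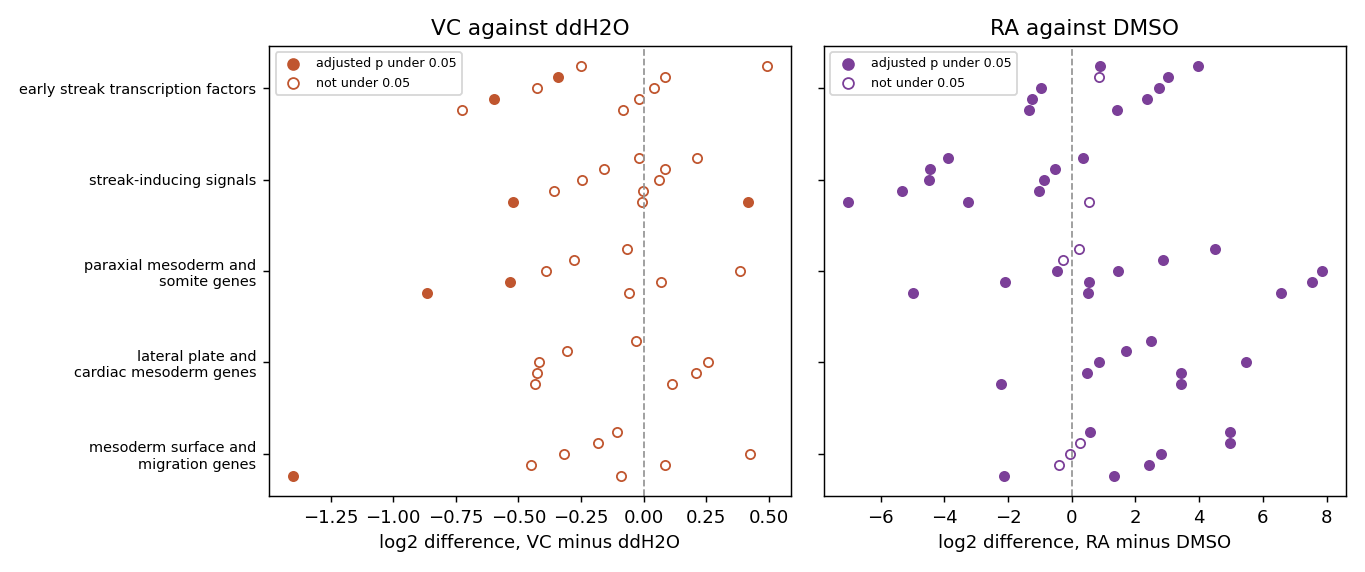
Log2 differences of the tested genes of the 5 lists, VC minus ddH2O on the left and RA minus DMSO on the right, on axes of different range, with 1 point per gene and small vertical offsets for legibility. Filled points passed an adjusted p under 0.05 (limma). In RA samples 9 of 11 streak-inducing signals were called lower and 7 of 8 lateral plate and cardiac genes higher.

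Markers of other cell types moved with these results in RA samples, and their part in them was not tested. Some markers were also counted in the lists above, so the counts are not independent. These are Foxa2, Gata4, Gata6 and Pdgfra of primitive endoderm, Tdgf1 of stem cells and Cdx2 of trophectoderm. Over all genes 34.8% were called higher and 40.8% lower. All 8 primitive endoderm markers were called higher. Their summed scaled signal, most of it from Lama1, was 14499 to 17114 in RA samples, against 5181 to 5707 in DMSO samples. For fibroblast markers 5 of 6 were higher and Thy1 lower, with sums of 17157 to 18396 in RA samples, mostly from Col1a2, and 876 to 946 in DMSO samples. Twist2 entered the test only through the RA arrays, while Postn and Lum were well above background on no array. Of 6 neural markers 5 were higher and Tubb3 lower (sums 9085 to 9505 in RA samples, 2854 to 2915 in DMSO samples), and of 5 trophectoderm markers 3 were higher and Tfap2c lower (24012 to 30022 in RA samples, mostly from Krt18, and 5807 to 6087 in DMSO samples), with Elf5 never above background. Of 8 stem cell markers 7 were lower and Nanog higher. RNA from fewer cells of a type and less RNA per cell cannot be told apart in such samples.

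In VC samples 3 of 7 stem cell markers were higher (Zfp42, Klf4 and Esrrb), and none was lower, against 3.18% and 7.14% of all genes. None of 7 primitive endoderm markers was called (sums of 656 in all 3 VC samples, 713 to 730 in ddH2O samples). One fibroblast marker of 6, Thy1, was lower (sums 1559 to 1674 in VC samples, 2013 to 2234 in ddH2O samples), with Lum never above background. One neural marker of 6, Hes5, was lower (sums 2703 to 2845 in VC samples, 2873 to 3007 in ddH2O samples). Of 4 trophectoderm markers Krt8 and Krt18 were lower (sums 9102 to 9474 in VC samples, 10078 to 10506 in ddH2O samples), with Gata3 never above background. No probe was called with the slide as a fixed block, nor without VC 1, ddH2O 1 or ddH2O 2, so none of these marker calls held there. The part of these markers in the member differences was not tested.

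The genes whose pattern lay closest to each member were found over the 12 arrays among 13685 genes, each centred on its controls, by the root mean square log2 difference. Mixl1 and Evx1 were too dim for this and were left out. For Mesp2 they were Washc1 (0.043), Nudcd3 (0.069) and 4930579G24Rik (0.076), and for Tbx6 Cacna2d1 (0.077), Ppara (0.090) and Nmb (0.091). For T they were Lyn (0.15), Foxj2 (0.17) and Rhoq (0.17), and for Gsc Il11 (0.18), Ccdc173 (0.21) and Prss16 (0.22). For Mesp1 they were Soat2 (0.20), Mst1 (0.21) and Sgcd (0.22). Hand2 lay closest to Irx1 (0.17), Limch1 (0.20) and Antxr2 (0.21). These distances describe 12 arrays of 4 conditions, and dim genes share noise near background.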

How the data were processed

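Total RNA was labelled with Cy3 and hybridised to 1-colour Agilent arrays. The deposited scanner files hold a processed intensity per spot, background-subtracted by Feature Extraction, of version 10.7.3.1 per the file headers and 10.7 per the submitters' processing notes. The authors' deposited series tables hold log2 values, with column medians of 5.96 (VC and ddH2O) and 5.18 (RA and DMSO) and slopes of 0.977 to 1.08 on the log2 scanner signal. The sources used here do not give their normalization, and they were used as an alternative.

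Control and outlier-flagged spots were left out, the log2 intensity minus the array's 75th percentile was averaged over a probe's spots, and each design was fitted separately with limma 3.58.1 (R 4.3.3, lmFit and eBayes) on probes well above background on at least 3 of 6 arrays. The fit was also run on simulated data with independent noise and no slide effect, and that run cannot speak to slide effects here. Accessions were named through the RefSeq gene table (GRCm38.p6), which gave a symbol to 27479 and 27235 probes. The members, lists and promoter motifs were chosen with earlier results of these data known. Every member probe is reported; of each list, the called genes with the largest changes are named, up to 2 per direction by fitted difference, and genes or markers named beyond those were chosen after their values were seen. With 3 arrays per group, the number of arrays limits the precision. Alternatives covered scaling, background correction, filters, probe choice, variance model, blocks and arrays left out.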

Additional observations from a re-analysis of the deposited data

How the results depend on the processing

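The direction of every tested member probe held under all alternatives run, except that 2 probes reversed when 1 array was left out: Gsc was 0.083 (RA minus DMSO) without DMSO 1, in a range of -0.374 to 0.083 over the 6 arrays left out, and Tbx6 A_55_P2061273 was 0.071 without RA 1, in a range of -0.198 to 0.071. For list genes, differences under the alternatives were read only for the called genes with the largest changes, up to 2 per direction and list. Of these, Acvr2b reversed to -0.032 with spike-in scaling.

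In VC against ddH2O, the 2333 calls over all probes became 0 without the filter on dim probes and 0 with the slide as a fixed block (limma), with 7634 and 6068 probes at an unadjusted p under 0.05, and the member and list gene calls also became 0 in both. An intensity trend gave 3978 calls over all probes and 0 member probes lower. Normexp left 0 member probes higher and 0 lower, with log2 differences of 0.15 for Mesp2, -0.11 for Mesp1 A_51_P341725, -0.045 for Mesp1 A_52_P627833, -0.049 for Hand2, -0.048 for Gsc, -0.079 for Tbx6 and -0.021 for T. The background mean fitted by normexp was -380, -857 and -303 on VC 1, VC 2 and ddH2O 2, and -3.49 to -6.26 on the others. Normexp without spots of high local background also left 0 member probes higher and 0 lower. It gave 0.24 for Mesp2 (limma, adjusted p = 0.0531), -0.18 for Mesp1 A_51_P341725 and -0.075 for Mesp1 A_52_P627833. For Hand2, Gsc, Tbx6 and T it gave -0.085, -0.084, -0.13 and -0.039. With outlier-flagged spots kept, T was -0.080. Spike-in scaling and the brightest probe of each gene each left 1 member probe lower, and the latter gave 11 list genes called. Leaving out 1 array gave 0 to 1038 calls over all probes, 0 to 0 member probes in either direction and 0 to 7 list genes; the count over all probes was 0 without VC 1, ddH2O 1 or ddH2O 2 (6236, 6262 and 5822 at an unadjusted p under 0.05), 1038 without VC 2, 686 without VC 3 and 387 without ddH2O 3. Of the calls over all probes 35.8% were higher, against 56.4% after median and 56.9% after spike-in scaling.

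In RA against DMSO, the lower member probes numbered 2 in place of 1 with quantile, median or spike-in scaling, normexp, the authors' series table or the brightest probe of each gene, Mesp2 being the second. Requiring all 6 arrays above background left 1 member probe higher of 4 tested. Fitting the brightest probe of each gene gave 12487 calls among 16015 probes. Leaving out 1 array gave 23608 to 27121 calls over all probes, 2 to 3 member probes higher, 1 to 2 lower and 43 to 46 list genes.

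Same-numbered samples did not deviate together (r = -0.069, 0.051 and -0.017 in VC against ddH2O, and -0.034, 0.017 and -0.036 in RA against DMSO), so the numbers were not taken to pair samples. With the replicate block, VC against ddH2O gave 0 calls over all probes (7644 at an unadjusted p under 0.05), 0 member probes higher, 0 lower and 0 list genes, and RA against DMSO gave 25050 calls. The causes of these changes were not tested. Signals near background limit T, Hand2 and Mesp1, and leave Mixl1 and Evx1 unmeasured. Normexp without spots of high local background was chosen after seeing the data.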
